A study of Arabidopsis thaliana with 12 samples.

Results

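Roots of Arabidopsis thaliana seedlings that overexpress the clock gene CIRCADIAN CLOCK ASSOCIATED 1 (CCA1-ox) were compared with roots of the wild type, Col-0 (WT). Each genotype gave 3 root RNA-seq libraries, so 6 of the 12 libraries of the series entered the comparison, and the other 6 are from shoots of the same genotypes. All seedlings were 8 days old and had grown at 22 °C in white fluorescent light of 15 µE that stayed on day and night, a regime without external time cues. Neither the promoter that drives CCA1, nor the transgenic line, nor the hour of harvest is given in the labels, so a clock gene's difference can hold a difference of phase as well as of level. Genes entered when their FPKM (fragments counted per kilobase of a gene and corrected for the size of the library) reached 1 in at least 3 of the 6 root libraries, which 19089 of the 33010 genes in the deposited table did. Of these, 96 passed through the CCA1-ox libraries alone and 186 through the WT libraries alone. The labels name no separate cultures, so a p-value here reflects no more than how far these samples spread, and that spread may be technical.

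The plant circadian clock is a ring of genes that repress and activate each other over the day. CCA1 and its partner LHY are MYB-like factors made around dawn, and they bind a short promoter sequence called the evening element and lower the genes that carry it. The genes held down in the morning, among them TOC1, GI and the evening complex of ELF3, ELF4 and LUX, rise towards dusk. Some of them, such as TOC1, in turn repress CCA1 and LHY. In roots the clock is known to keep a simpler or slower rhythm than in shoots, and it times water uptake, growth and mineral transport.

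The evening element reads AAATATCT. It was searched on both strands from 250 bases before to 50 bases after the annotated start of each gene, and 11 of 17 evening clock genes held it, with 23 matches in all. The stretches below are shown because they carry the sequence CCA1 binds, in genes whose root levels are given next. They come from RefSeq (TAIR10.1), each written 5′ to 3′ on the strand of its gene, with the evening element or its reverse complement in capitals. A match is a description of the letters and not evidence of binding.
PRR5, chr5:8358696-8358763, minus strand: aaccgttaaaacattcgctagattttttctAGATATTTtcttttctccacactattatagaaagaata
TOC1, chr5:24674782-24674849, plus strand: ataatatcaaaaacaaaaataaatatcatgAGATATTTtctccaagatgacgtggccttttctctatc
ELF4, chr2:16735156-16735233, minus strand: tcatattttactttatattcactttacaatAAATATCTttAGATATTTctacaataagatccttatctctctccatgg
LUX, chr3:17182942-17183027, plus strand: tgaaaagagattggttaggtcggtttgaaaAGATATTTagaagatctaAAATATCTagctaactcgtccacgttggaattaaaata
BOA, chr5:24003815-24003882, plus strand: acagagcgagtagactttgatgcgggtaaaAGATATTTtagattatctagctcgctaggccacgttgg
FKF1, chr1:25508369-25508490, plus strand: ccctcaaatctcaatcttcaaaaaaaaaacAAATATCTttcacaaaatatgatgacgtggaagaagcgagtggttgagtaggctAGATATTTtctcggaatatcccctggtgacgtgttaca
COR27, chr5:17200060-17200127, minus strand: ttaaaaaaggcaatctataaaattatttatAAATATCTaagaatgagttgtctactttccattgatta
COR27, chr5:17199911-17199979, minus strand: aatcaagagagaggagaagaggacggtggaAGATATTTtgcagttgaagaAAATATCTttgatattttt
CCR1, chr4:18275217-18275258, minus strand: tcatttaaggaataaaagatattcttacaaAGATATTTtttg
CCR2, chr2:9266558-9266663, minus strand: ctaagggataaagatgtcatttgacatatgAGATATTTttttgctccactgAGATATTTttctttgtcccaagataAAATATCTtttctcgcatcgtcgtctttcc
The element stands 187 bases before the start of PRR5 and 151 bases before that of TOC1, once in each. The stretches shown for ELF4, LUX and FKF1 each hold a pair of copies, and that of CCR2 holds 3 copies within 106 bases upstream of its start. Over the whole window searched, LUX had 2 matches, FKF1 had 3 and ELF4 had 4.

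The overexpressed gene was read first. CCA1 (AT2G46830, chromosome 2, 19245591 to 19248915) stood at 17.2, 16.2 and 17.9 FPKM in WT roots and 172, 172 and 179.6 FPKM in CCA1-ox roots. The groups did not overlap, with a log2 fold change of 3.28 ± 0.04, adjusted p = 6.26e-13, by limma with Benjamini-Hochberg adjustment as for every adjusted p below. Fold changes are differences of log2(FPKM + 1), CCA1-ox minus WT, each ± its standard error (SE) with n = 3 libraries a group; they understate the change of weakly expressed genes. A gene is called when its adjusted p is under 0.05. Fragments of a transgene copy count towards CCA1, so its level does not separate the native gene from the transgene. The library labels and the level of the overexpressed gene matched in all 6 root libraries.

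Across the 19089 genes tested, 7442 (39.0%) were called, 4504 (23.6%) higher and 2938 (15.4%) lower in CCA1-ox roots. Most differences were small. Of the called genes, 3214 (43.2%) changed by less than 0.25 on the log2 scale, and the median over all tested genes was 0.03. At least 2-fold changes were fewer, with 93 genes (0.487% of those tested) higher and 211 (1.11%) lower, and beyond 4-fold there were 6 higher and 31 lower genes. The share of calls that were higher, 60.5% with the deposited scaling, was 41.9% when libraries were scaled to their summed fragments, 52.1% after quantile normalization and 50.8% with TMM-scaled fragments. All 304 genes past 2-fold were called in the same direction after quantile normalization and after scaling to summed fragments. The counts given below for each gene list are read against these shares of all tested genes. The lists were chosen with earlier results of these data known, so their counts are descriptions and not a test. Of the 229 genes of the text followed through the alternatives, 27 passed the filter on low values through 1 genotype alone, the one where they were high, and each of the 27 was also called when no filter was applied. The direction of such a gene was fixed by how it entered. The plot of fold change against level shows this lean towards large falls.

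**Figure D1:**
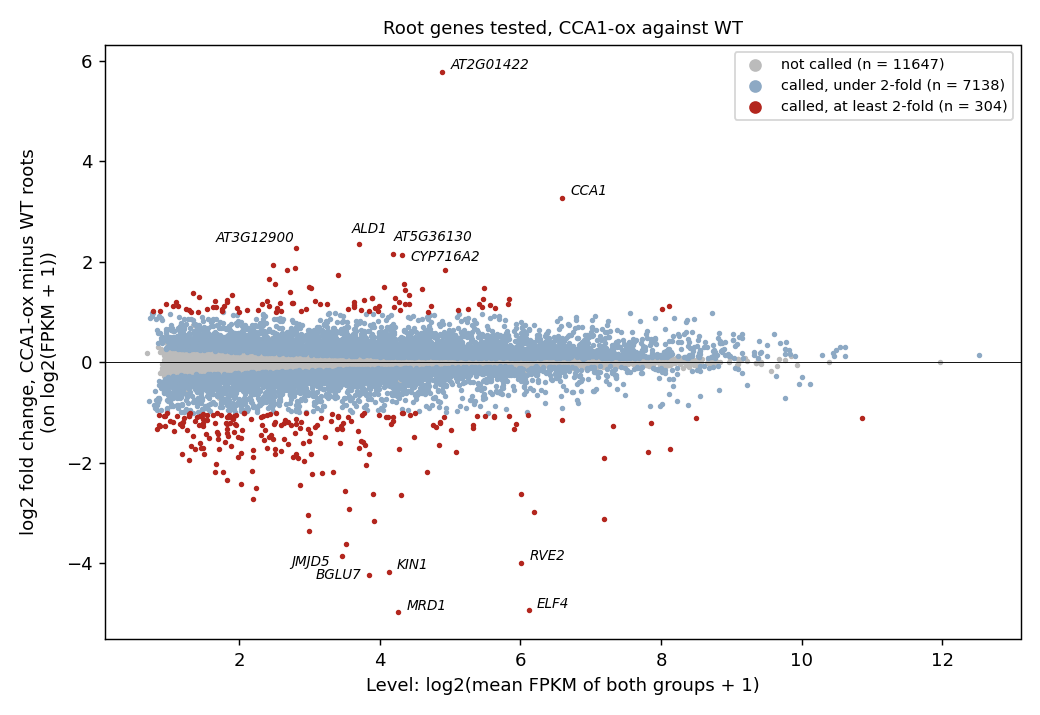
Each point is 1 of the 19089 root genes, with its log2 mean FPKM on the x axis and its log2 fold change (CCA1-ox minus WT) on the y axis. Grey points were not called, blue points were called under 2-fold and red points at least 2-fold; the 6 highest rises and 6 deepest falls are named, and more red points lie below 0 (211) than above it (93).

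Recovered from the deposited values, fragments numbered 37773138 to 45051329 in the WT libraries and 27142671 to 38537638 in the CCA1-ox libraries. Chlorophyll-binding and Rubisco markers of shoots (LHCB1.3, LHCB2.1, RBCS1A, RBCS3B and LHCA1) summed to 21.6 to 23.0 FPKM in the WT root libraries and to 4.23 to 4.99 FPKM in those of CCA1-ox, against at least 35170 in WT shoots. The whole list of 19 light-harvesting and Rubisco genes, which holds these 5, summed to 124.9 to 130.9 FPKM in WT and 127.1 to 141.7 FPKM in CCA1-ox roots, so there the groups overlapped. Much of that sum came from LHCB1.5 and LHCA4, whose means rose from 35.5 and 23.2 FPKM in WT to 65.8 and 34.8 FPKM in CCA1-ox roots. Of the 11 members tested, 7 were lower and 2 higher, so the overlapping sums hide opposite changes. The 4 guard cell markers, FAMA, MYB60, KAT1 and EPF1, summed to at most 0.19 FPKM in any root library, with 2 of them at 0 throughout. All markers of root hair (8), root cap (4), endodermis (8), xylem (8) and root meristem (3) stood higher in WT roots than in WT shoots, as did 1 of 2 non-hair epidermis markers and none of the 3 phloem markers. Among tested genes 1039 overlap a neighbour on the same strand and 5407 one on the other strand, and with the counting settings not given in the sources used here their values are uncertain, as are those of near-identical paralogs.

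Among the evening clock genes, 12 of 17 fell, 4 rose and 1 was not called, with a median log2 fold change of -0.93 against 0.03 over all tested genes, of which 15.4% were called lower. Of the 12, BOA, FKF1, JMJD5, COR27 and AT4G33980 passed the filter through the WT libraries alone. The falls took in parts of the evening complex, the flowering-time F-box gene FKF1 and the pseudo-response regulators PRR5 and TOC1. ELF4 (AT2G40080, chromosome 2, 16734294 to 16734953), a small protein of the evening complex, stood at 127, 136 and 137 FPKM in WT roots and 3.099, 3.54 and 3.54 FPKM in CCA1-ox roots. WT libraries were all far above the CCA1-ox libraries, with a log2 fold change of -4.94 ± 0.05, adjusted p = 2.2e-13. Its partner ELF3 (AT2G25930), the scaffold of that complex, stood at 36.5, 36.2 and 36.4 FPKM in WT roots and 18.6, 19.1 and 19.8 FPKM in CCA1-ox roots, lower in every CCA1-ox library with a log2 fold change of -0.89 ± 0.04, adjusted p = 9.17e-09. LUX (AT3G46640), its DNA-binding member, stood at 8.67, 7.97 and 8.61 FPKM in WT roots and 3.92, 3.91 and 4.02 FPKM in CCA1-ox roots. The 3 CCA1-ox values lay below all WT values (log2 fold change -0.93 ± 0.06, adjusted p = 3.56e-07), and so did those of BOA (AT5G59570), a close relative of LUX, at 2.29, 2.09 and 2.18 FPKM in WT roots and 0.358, 0.401 and 0.381 FPKM in CCA1-ox roots. BOA's change came to a log2 fold change of -1.21 ± 0.09, adjusted p = 1.22e-06.

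PRR5 (AT5G24470), a repressor of CCA1 and LHY in the afternoon, stood at 14.9, 15.5 and 15.99 FPKM in WT roots and 2.34, 3.05 and 2.59 FPKM in CCA1-ox roots. Groups were apart, and PRR5 had a log2 fold change of -2.18 ± 0.07, adjusted p = 2.78e-09. TOC1 (AT5G61380, chromosome 5, 24674963 to 24678550), the evening pseudo-response regulator, stood at 39.6, 40.8 and 37.8 FPKM in WT roots and 15.7, 16.5 and 16.95 FPKM in CCA1-ox roots. This was a smaller fall than that of ELF4, with a log2 fold change of -1.22 ± 0.04, adjusted p = 3.23e-09. FKF1 (AT1G68050), a blue-light receptor F-box protein of the photoperiod pathway, was at 3.88, 4.02 and 4.55 FPKM in WT roots and 0.139, 0.115 and 0.153 FPKM in CCA1-ox roots, so it was close to 0 in all CCA1-ox roots. JMJD5 (AT3G20810), a jumonji-domain protein tied to the evening clock, went from 19.4, 19.4 and 19.9 FPKM in WT roots to 0.445, 0.444 and 0.371 FPKM in CCA1-ox roots. The groups were wide apart, with a log2 fold change of -3.86 ± 0.06, adjusted p = 8.55e-12. COR27 (AT5G42900), a cold-regulated repressor of clock genes, read 2.84, 2.78 and 2.72 FPKM in WT roots and 0.402, 0.1099 and 0.09998 FPKM in CCA1-ox roots, and AT4G33980 read 6.21, 5.91 and 5.398 FPKM in WT roots and 0.256, 0.183 and 0.401 FPKM in CCA1-ox roots. Both fell, COR27 with a log2 fold change of -1.66 ± 0.11, adjusted p = 5.81e-07 and AT4G33980 with a log2 fold change of -2.42 ± 0.09, adjusted p = 7.29e-09.

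The evening genes that did not fall were of several kinds. GI (AT1G22770), a large scaffold protein that stabilises ZTL, stood at 10.8, 10.2 and 10.5 FPKM in WT roots and 16.8, 18.4 and 18.18 FPKM in CCA1-ox roots. Every CCA1-ox library was above every WT library, with a log2 fold change of 0.71 ± 0.05, adjusted p = 6.06e-07. PRR3 (AT5G60100), which protects TOC1 from degradation, read 3.31, 3.56 and 3.24 FPKM in WT roots and 6.48, 6.88 and 7.66 FPKM in CCA1-ox roots (log2 fold change 0.87 ± 0.07, adjusted p = 2.94e-06), and CHE (AT5G08330), a TCP factor that binds the CCA1 promoter, read 8.04, 7.18 and 7.63 FPKM in WT roots and 11.01, 10.2 and 9.501 FPKM in CCA1-ox roots (log2 fold change 0.38 ± 0.06, adjusted p = 0.000586). Both were higher without overlap. Among the blue-light F-box genes related to FKF1, ZTL (AT5G57360) fell slightly, with a log2 fold change of -0.16 ± 0.04, adjusted p = 0.00869. LKP2 (AT2G18915) overlapped between groups at 9.38, 9.27 and 10.1 FPKM in WT roots and 9.34, 9.03 and 8.89 FPKM in CCA1-ox roots, with a log2 fold change of -0.07 ± 0.05, adjusted p = 0.324. The paired RNA-binding genes CCR1 and CCR2, which oscillate under the clock, differed: CCR2 (AT2G21660) was at 1260, 1211 and 1361 FPKM in WT roots and 983, 949 and 906 FPKM in CCA1-ox roots and fell (log2 fold change -0.43 ± 0.04, adjusted p = 1.5e-05). CCR1 (AT4G39260) was at 510.2, 502 and 517 FPKM in WT roots and 551, 551 and 518 FPKM in CCA1-ox roots, at the edge of the threshold with a log2 fold change of 0.08 ± 0.03, adjusted p = 0.0482. That CCR1 call was lost without any WT root replicate and without CCA1-ox root replicate 1 or 2, and its sign turned under quantile normalization (-0.051).

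The morning clock genes other than CCA1 itself went both ways, with 5 of 14 tested higher, 6 lower and 3 not called, and a median log2 fold change of -0.12. LHY (AT1G01060, chromosome 1, 33365 to 37871), the partner of CCA1, was at 20.4, 19.98 and 20.2 FPKM in WT roots and 0.657, 0.838 and 0.6695 FPKM in CCA1-ox roots. All CCA1-ox libraries were under 1 FPKM, so LHY passed the filter through the WT libraries alone, and it had a log2 fold change of -3.63 ± 0.06, adjusted p = 1.82e-11. RVE2 (AT5G37260), a MYB-like gene of the same family, was at 124, 117 and 118 FPKM in WT roots and 6.09, 7.19 and 6.65 FPKM in CCA1-ox roots. This was the deepest fall among the morning genes, with a log2 fold change of -3.99 ± 0.05, adjusted p = 1.08e-12. The related RVE1 (AT5G17300), which links the clock to auxin, read 10.9, 11.4 and 11 FPKM in WT roots and 2.16, 2.15 and 2.01 FPKM in CCA1-ox roots (log2 fold change -1.96 ± 0.06, adjusted p = 1.35e-09). RVE8 (AT3G09600), an activator of evening genes, read 13.9, 12.9 and 13.2 FPKM in WT roots and 5.58, 5.81 and 6.04 FPKM in CCA1-ox roots and also fell, with a log2 fold change of -1.07 ± 0.05, adjusted p = 5.47e-08. Its relative RVE4 (AT5G02840) fell less, at 31.7, 32.4 and 31.4 FPKM in WT roots and 25.6, 24.7 and 26.3 FPKM in CCA1-ox roots (log2 fold change -0.31 ± 0.04, adjusted p = 5.02e-05). AT4G01280, AT5G52660 and RVE7 (AT1G18330), listed with them, were not called, with log2 fold changes of -0.15, -0.09 and 0.07.

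Apart from the overexpressed CCA1, the morning genes that rose were PRR7, PRR9, LNK1, LNK3 and LNK4. PRR7 (AT5G02810), a repressor of CCA1 and LHY, stood at 9.26, 9.59 and 8.99 FPKM in WT roots and 28.5, 29.3 and 30.3 FPKM in CCA1-ox roots. No WT library reached the CCA1-ox range, and PRR7 had a log2 fold change of 1.56 ± 0.04, adjusted p = 5.7e-10. PRR9 (AT2G46790), the earliest PRR gene of the day, read 2.49, 2.53 and 2.83 FPKM in WT roots and 7.76, 7.85 and 10.4 FPKM in CCA1-ox roots (log2 fold change 1.41 ± 0.10, adjusted p = 7.48e-07). LNK genes encode co-factors of RVE8, and here they went in both directions. LNK1 (AT5G64170) stood at 7.41, 7.56 and 8.02 FPKM in WT roots and 19.4, 19.99 and 20.6 FPKM in CCA1-ox roots and rose (log2 fold change 1.28 ± 0.05, adjusted p = 5.81e-09). LNK2 (AT3G54500), in contrast, stood at 23.2, 21.6 and 23.7 FPKM in WT roots and 12.1, 13.1 and 13.2 FPKM in CCA1-ox roots and fell (log2 fold change -0.79 ± 0.05, adjusted p = 2.93e-07). The smaller relatives LNK3 (AT3G12320) and LNK4 (AT5G06980) rose, with log2 fold changes of 0.93 ± 0.11 and 1.88 ± 0.07 (SE), and LNK4 overlaps a neighbouring gene on its own strand. The dot plot of clock genes shows each library.

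**Figure D2:**
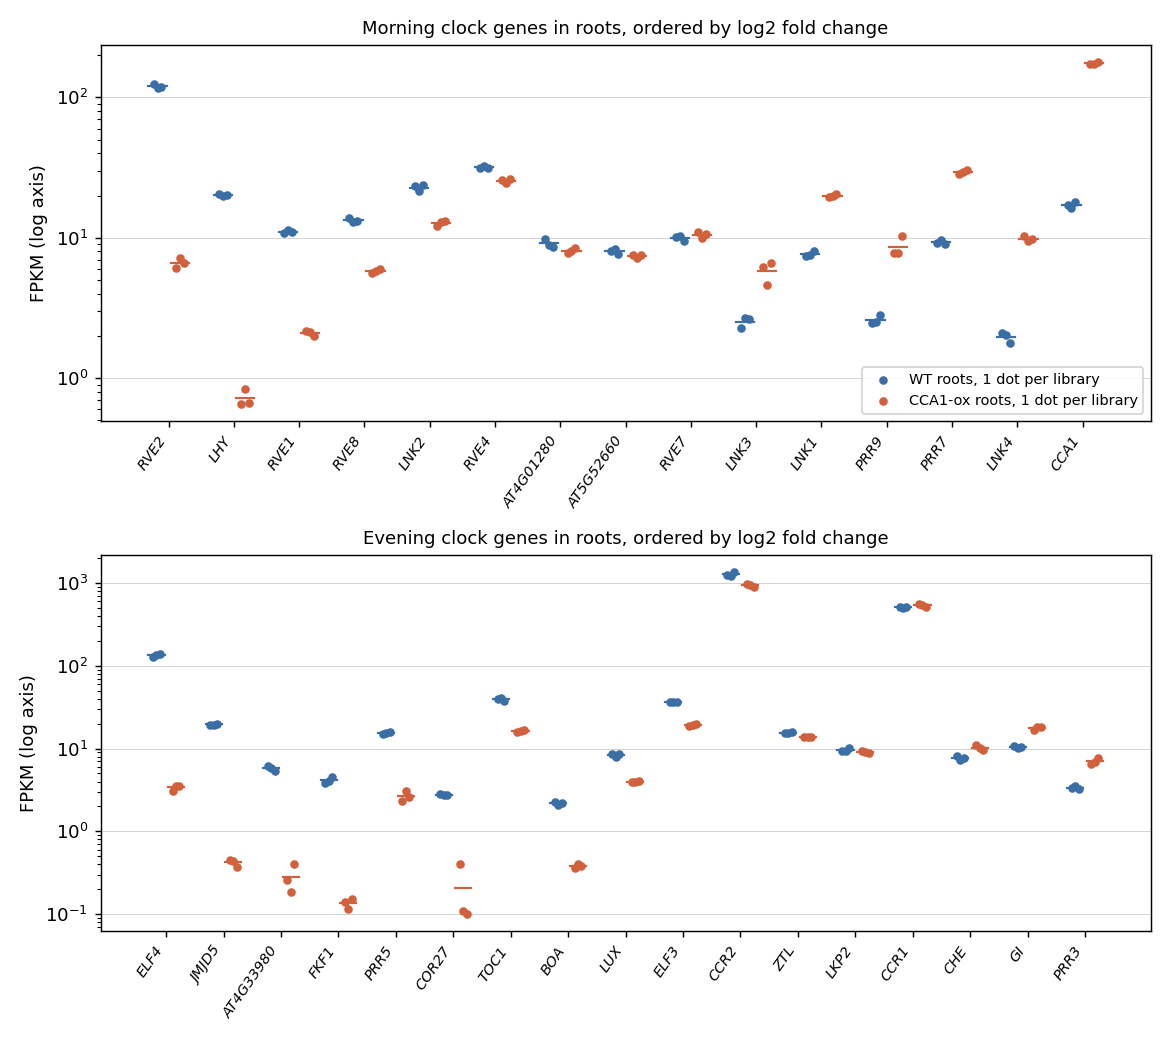
Dots are single root libraries (blue WT, orange CCA1-ox) and short lines are group means, in FPKM on a log axis, for the 15 tested morning genes and the 17 evening genes ordered by log2 fold change. CCA1, LNK4 and PRR7 stand higher in all CCA1-ox libraries, while RVE2, LHY, ELF4 and JMJD5 stand lowest relative to WT.

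The evening element was more frequent among genes that fell. It stood in 21.5% of the promoter windows of genes at least 2-fold lower (44 of 205 with a window) and in 8.93% of those called lower by less (236 of 2644). Among genes not called it stood in 4.86% (537 of 11044), among genes called higher under 2-fold in 5.54% (239 of 4313), and among genes at least 2-fold higher in 4.55% (4 of 88). Over all 27444 protein-coding promoters the share was 5.65%. The CCA1-binding site AAAAATCT, which differs from it by a single letter, ranged less, from 4.55% to 8.78% over these classes against 7.88% of all promoters. The G-box CACGTG, bound by bZIP and bHLH factors such as HY5, stood in 18.5% of genes at least 2-fold lower and 12.5% of those at least 2-fold higher, against 7.68% of all promoters. These shares are descriptions and carry no test. The bar plot of motif shares sets the classes side by side.

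**Figure D3:**
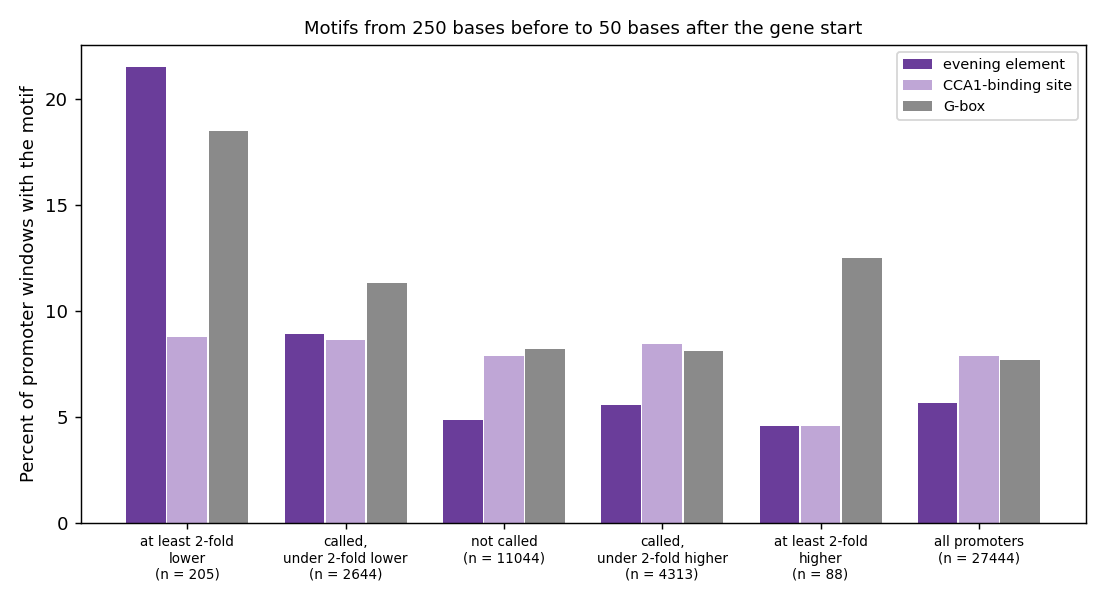
Bars give the percent of promoter windows, from 250 bases before to 50 bases after the gene start, that hold the evening element, the CCA1-binding site or the G-box, for 5 classes of tested genes and for all promoters. The evening element bar is highest, at 21.5%, for genes at least 2-fold lower and lies between 4.55% and 8.93% in the other classes.

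Genes of flavonoid synthesis fell together. Flavonols are pigments made from phenylalanine that in roots absorb light and restrain auxin transport, and all 11 tested genes of the 17 listed were lower, with a median log2 fold change of -1.33. Among the 11, F3'H and UGT78D1 passed the filter through the WT libraries alone, so for them a fall was the only outcome. The first enzyme, chalcone synthase (CHS, AT5G13930, chromosome 5, 4488476 to 4490264), was at 126, 133 and 129.5 FPKM in WT roots and 14.9, 17.1 and 15.03 FPKM in CCA1-ox roots. No CCA1-ox library came near the WT range, and CHS had a log2 fold change of -2.97 ± 0.05, adjusted p = 8.73e-12. Chalcone isomerase (CHI, AT3G55120) read 19.96, 19.7 and 19.9 FPKM in WT roots and 1.48, 2.33 and 1.51 FPKM in CCA1-ox roots and had a log2 fold change of -2.93 ± 0.10, adjusted p = 2.87e-09. The hydroxylases that follow, F3H (AT3G51240) and F3'H (AT5G07990), had a log2 fold change of -1.79 ± 0.05, adjusted p = 3.55e-10 and a log2 fold change of -2.49 ± 0.08, adjusted p = 1.86e-09. F3'H dropped from 7.33, 7.28 and 6.48 FPKM to 0.452, 0.404 and 0.416 FPKM, below 0.5 in all CCA1-ox roots. Flavonol synthase (FLS1, AT5G08640) stood at 42.3, 39.8 and 40.5 FPKM in WT roots and 8.39, 8.28 and 8.17 FPKM in CCA1-ox roots, with no overlap and a log2 fold change of -2.17 ± 0.04, adjusted p = 1.83e-11. MYB12 (AT2G47460), the activator of these genes in roots, stood at 13.7, 14.2 and 14.2 FPKM in WT roots and 5.28, 4.23 and 5.44 FPKM in CCA1-ox roots and fell as well (log2 fold change -1.33 ± 0.08, adjusted p = 1.39e-07). The glycosyltransferase genes had the smallest falls of the list: UGT78D2 (AT5G17050) had a log2 fold change of -1.01 ± 0.04, adjusted p = 1.48e-08, UGT78D1 (AT1G30530) had a log2 fold change of -0.69 ± 0.10 and AT1G06000 one of -0.30 ± 0.04 (SE).

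Light signalling genes were lower in 7 of 14 tested and higher in none. The lower ones numbered 5 when any 1 WT root replicate, or CCA1-ox root replicate 1 or 2, was left out. Without CCA1-ox root replicate 3 they numbered 6. HY5 (AT5G11260), the bZIP factor that drives light responses, stood at 45.8, 41.98 and 43.1 FPKM in WT roots and 28.97, 25.2 and 25.2 FPKM in CCA1-ox roots. All CCA1-ox values were below the WT values, with a log2 fold change of -0.70 ± 0.05, adjusted p = 1.84e-06. HYH (AT3G17609), its homologue, stood at 39.2, 40.7 and 38.5 FPKM in WT roots and 17.7, 17.7 and 15.1 FPKM in CCA1-ox roots and had a log2 fold change of -1.19 ± 0.06, adjusted p = 3.88e-08. RUP1 (AT5G52250), a brake on the UV-B receptor, fell by 0.32 on the log2 scale. The photoreceptor genes PHYB, CRY2, PHOT1, PHOT2 and UVR8 were not called. In contrast to flavonoid synthesis, the general phenylpropanoid and lignin genes upstream and beside it were higher in 10 of 14 tested and lower in 1, with a median of 0.17. 4CL1 (AT1G51680), a coenzyme A ligase of that route, read 83.4, 84.9 and 87.1 FPKM in WT roots and 108, 107 and 111 FPKM in CCA1-ox roots (log2 fold change 0.35 ± 0.03, adjusted p = 2.71e-06). CCoAOMT1 (AT4G34050), a methyltransferase of lignin monomers, read 377, 375 and 377 FPKM in WT roots and 479, 466 and 485 FPKM in CCA1-ox roots (log2 fold change 0.34 ± 0.03, adjusted p = 1.28e-06). Both were higher in every CCA1-ox library. Cinnamoyl-CoA reductase, also abbreviated CCR1 but encoded by AT1G15950, was the exception with a log2 fold change of -0.13 ± 0.03, adjusted p = 0.00398.

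Cold and dehydration effector genes, which encode small hydrophilic or membrane-protecting proteins induced by chilling and abscisic acid, were all lower. The 8 tested of 12 listed had a median log2 fold change of -1.12. Among the 8, KIN1 passed the filter through the WT libraries alone, so for it a fall was the only outcome. KIN1 (AT5G15960, chromosome 5, 5209717 to 5210826) stood at 34.2, 32.4 and 29.6 FPKM in WT roots and 0.971, 0.827 and 0.712 FPKM in CCA1-ox roots. CCA1-ox libraries were all under 1 FPKM, with a log2 fold change of -4.17 ± 0.07, adjusted p = 1.42e-11. Its neighbour KIN2 (AT5G15970) stood at 109, 109 and 110.1 FPKM in WT roots and 17.8, 16.2 and 17.03 FPKM in CCA1-ox roots, a shallower fall with a log2 fold change of -2.62 ± 0.04, adjusted p = 2.23e-12. RD29A (AT5G52310) read 9.66, 10.4 and 9.59 FPKM in WT roots and 2.17, 1.95 and 2.15 FPKM in CCA1-ox roots (log2 fold change -1.82 ± 0.06, adjusted p = 4.18e-09) and the dehydrin RAB18 (AT5G66400) read 3.95, 3.97 and 4.59 FPKM in WT roots and 0.985, 1.03 and 0.846 FPKM in CCA1-ox roots (log2 fold change -1.40 ± 0.09, adjusted p = 2.7e-07). Both groups were apart for each. The abundant dehydrins changed less in log2 terms. COR47 (AT1G20440) stood at 330.4, 332 and 328 FPKM in WT roots and 196, 189 and 171 FPKM in CCA1-ox roots (log2 fold change -0.83 ± 0.04, adjusted p = 6.84e-08), LTI30 (AT3G50970) had a log2 fold change of -0.65 ± 0.03, adjusted p = 8.87e-08, and ERD10 (AT1G20450) had a log2 fold change of -0.38 ± 0.04, adjusted p = 1.97e-05. COR413-PM1 (AT2G15970), a membrane protein, changed by -0.11. Of 6 cold regulators listed 3 were tested, and CBF1, CBF2 and CBF3 did not pass the filter. RAV1 (AT1G13260) was lower (log2 fold change -0.54 ± 0.06, adjusted p = 1.78e-05), ZAT10 (AT1G27730) higher (log2 fold change 0.37 ± 0.06, adjusted p = 0.000412) and ZAT12 not called. ZAT12 was called lower under quantile normalization, after scaling to summed fragments and with TMM-scaled fragments, where 2 of the 3 were lower and 1 higher. Abscisic acid metabolism and signalling genes were higher in 6 of 13 tested and lower in 2. After scaling to summed fragments 4 were higher and 4 lower, and 4 were higher without WT root replicate 1 or 3. The receptor gene PYL4 (AT2G38310) rose with a log2 fold change of 0.43 ± 0.04, adjusted p = 3.63e-06, and the phosphatase ABI1 (AT4G26080) and the bZIP factor ABF4 (AT3G19290) fell, with a log2 fold change of -0.32 ± 0.03, adjusted p = 1.86e-05 and a log2 fold change of -0.48 ± 0.05, adjusted p = 1.58e-05.

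Iron uptake genes rose together in CCA1-ox roots. Arabidopsis takes up iron by acidifying the soil, secreting coumarins, reducing iron at the root surface and importing it, under the control of the bHLH factor FIT and its partners. Of 29 genes listed 27 were tested, 22 were higher, 3 lower and 2 not called, with a median log2 fold change of 0.40, while 23.6% of all tested genes were called higher. Among the 27, 1 passed the filter through the CCA1-ox libraries alone. The ferric reductase FRO2 (AT1G01580, chromosome 1, 208995 to 213082) stood at 11.3, 11.02 and 11.3 FPKM in WT roots and 21.6, 22.5 and 23.3 FPKM in CCA1-ox roots. All CCA1-ox values lay far above the WT values, with a log2 fold change of 0.94 ± 0.04, adjusted p = 2.64e-08. The importer IRT1 (AT4G19690) stood at 44.98, 46.5 and 46.3 FPKM in WT roots and 80.98, 83.5 and 79.7 FPKM in CCA1-ox roots, again without overlap (log2 fold change 0.81 ± 0.03, adjusted p = 6.38e-09). FIT (AT2G28160) was at 34.5, 33.6 and 34.3 FPKM in WT roots and 43.7, 44.3 and 47.5 FPKM in CCA1-ox roots, a smaller rise with a log2 fold change of 0.39 ± 0.04, adjusted p = 8.95e-06. The subgroup Ib factors BHLH38 (AT3G56970) and BHLH39 (AT3G56980), which pair with FIT, had a log2 fold change of 0.81 ± 0.05, adjusted p = 1.47e-07 and a log2 fold change of 0.69 ± 0.04, adjusted p = 2e-07.

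The largest rises of the iron list were those of AT3G12900 and CYP82C4. AT3G12900, annotated in RefSeq as a member of the 2-oxoglutarate and Fe(II)-dependent oxygenase superfamily, stood at 1.28, 1.53 and 1.39 FPKM in WT roots and 10.5, 10.9 and 10.6 FPKM in CCA1-ox roots. It lay on chromosome 3 from 4104463 to 4106341, and its groups were far apart with a log2 fold change of 2.28 ± 0.07, adjusted p = 9.14e-10. CYP82C4 (AT4G31940), a cytochrome P450 of coumarin synthesis, stood at 11.2, 10.97 and 11.2 FPKM in WT roots and 31.01, 29.6 and 28.7 FPKM in CCA1-ox roots. CCA1-ox libraries were all above WT, with a log2 fold change of 1.34 ± 0.04, adjusted p = 1.35e-09. F6'H1 (AT3G13610), the entry enzyme to scopoletin, stood at 105, 111 and 109 FPKM in WT roots and 194, 192 and 191 FPKM in CCA1-ox roots and rose with a log2 fold change of 0.82 ± 0.03, adjusted p = 2.81e-09. ABCG37 (AT3G53480), an exporter of phenolics, read 139, 135 and 141 FPKM in WT roots and 166, 180.0 and 182 FPKM in CCA1-ox roots (log2 fold change 0.35 ± 0.04, adjusted p = 2.19e-05). The nicotianamine synthase genes, whose product carries metals within the plant, were split: NAS1 (AT5G04950) rose with a log2 fold change of 0.74 ± 0.04, adjusted p = 8.29e-08, while NAS4 (AT1G56430) fell with a log2 fold change of -0.37 ± 0.06, adjusted p = 0.000405. The metal importer NRAMP1 (AT1G80830) fell, at 77.7, 78.8 and 83.6 FPKM in WT roots and 66.4, 70.5 and 67.4 FPKM in CCA1-ox roots (log2 fold change -0.23 ± 0.04, adjusted p = 0.000393). AT1G47400 was at 4.399, 5.38 and 4.204 FPKM in WT roots and 3.06, 2.8 and 4.33 FPKM in CCA1-ox roots, with overlapping groups and a log2 fold change of -0.37 ± 0.12, adjusted p = 0.0322, a call that was lost without WT root replicate 1 or 2 or without CCA1-ox root replicate 1 or 2. Ferritins, the iron storage proteins, went the other way. FER1 (AT5G01600) stood at 76, 76.1 and 75.8 FPKM in WT roots and 57.1, 53.1 and 52.6 FPKM in CCA1-ox roots and fell (log2 fold change -0.48 ± 0.03, adjusted p = 1.01e-06), as did FER4 (AT2G40300; log2 fold change -0.56 ± 0.07, adjusted p = 0.000116), which overlaps a neighbour on its strand, and FER3 (AT3G56090) had a log2 fold change of -0.05 and was not called.

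Other mineral transport genes moved by group. Sulfur uptake and sulfur-deficiency genes were higher in 9 of 10 tested and lower in none, with a median of 0.38. The root sulfate importer SULTR1;2 (AT1G78000, chromosome 1, 29327515 to 29333220) stood at 75.6, 76.1 and 76.7 FPKM in WT roots and 139.8, 146 and 144 FPKM in CCA1-ox roots. No value overlapped, with a log2 fold change of 0.90 ± 0.03, adjusted p = 1.17e-09. APR1 (AT4G04610), a reductase of sulfate assimilation, stood at 33.97, 34.5 and 34.4 FPKM in WT roots and 53.7, 49.6 and 51.5 FPKM in CCA1-ox roots (log2 fold change 0.57 ± 0.03, adjusted p = 2.48e-07), and APR3 (AT4G21990) rose with a log2 fold change of 0.40 ± 0.03, adjusted p = 6.11e-07. APR2 (AT1G62180) was not called, at 38.3, 39.7 and 39.5 FPKM in WT roots and 40.7, 40.5 and 40.0 FPKM in CCA1-ox roots. SDI1 (AT5G48850) and GGCT2;1 (AT5G26220), both induced by sulfur shortage, had log2 fold changes of 0.9954 ± 0.08 and 0.52 ± 0.12 (SE). GGCT2;1 passed the filter through the CCA1-ox libraries alone. Nitrogen uptake and assimilation genes were mixed, with 9 of 19 tested higher and 5 lower. AMT1;2 (AT1G64780), an ammonium importer of the inner root, stood at 64.7, 63.9 and 67.8 FPKM in WT roots and 125, 120.3 and 118 FPKM in CCA1-ox roots. CCA1-ox libraries all stood above the WT range, and AMT1;2 had a log2 fold change of 0.88 ± 0.03, adjusted p = 5.76e-09. The nitrate transceptor NRT1.1 (AT1G12110) rose with a log2 fold change of 0.34 ± 0.04, adjusted p = 2.18e-05, and the glutamate synthase GLT1 (AT5G53460) with a log2 fold change of 0.40 ± 0.04, adjusted p = 1.48e-05. Lower were the asparagine synthetase ASN1 (AT3G47340), at 14.1, 13.9 and 13.9 FPKM in WT roots and 7.55, 8.08 and 8.28 FPKM in CCA1-ox roots (log2 fold change -0.74 ± 0.05, adjusted p = 5.12e-07), the nitrate reductase NIA1 (AT1G77760; log2 fold change -0.37 ± 0.05, adjusted p = 0.000103) and the weakly expressed high-affinity carrier NRT2.1 (AT1G08090; log2 fold change -0.44 ± 0.09, adjusted p = 0.00272). Regulators of the nitrate response were higher in 6 of 11 and lower in none, among them NLP7 (AT4G24020), a nitrate sensor and transcription factor, with a log2 fold change of 0.30 ± 0.03, adjusted p = 4.45e-05.

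Phosphate starvation genes were called in 6 of 14 tested, 4 higher and 2 lower, a share near the 39.0% of all tested genes; 1 was lower without WT root replicate 1 or 3 or CCA1-ox root replicate 2 or 3. AT4 (AT5G03545), a noncoding RNA that sequesters a microRNA of phosphate signalling, stood at 13.3, 11.9 and 11.6 FPKM in WT roots and 48.6, 45.4 and 45.5 FPKM in CCA1-ox roots. It was the largest change of that list, with a log2 fold change of 1.84 ± 0.05, adjusted p = 6.88e-10. The importer PHT1;1 (AT5G43350) stood at 167, 169 and 172 FPKM in WT roots and 210.3, 224 and 213 FPKM in CCA1-ox roots (log2 fold change 0.35 ± 0.03, adjusted p = 3.55e-06), and the xylem loader PHO1 (AT3G23430) at 184, 187 and 186 FPKM in WT roots and 166, 175 and 175 FPKM in CCA1-ox roots (log2 fold change -0.11 ± 0.03, adjusted p = 0.00717). Of the potassium genes 3 of 7 were higher and 1 was lower, but 1 was higher without WT root replicate 3, without CCA1-ox root replicate 3 or after scaling to summed fragments. SKOR (AT3G02850), a channel that loads potassium into the xylem, stood at 7.55, 7.602 and 7.45 FPKM in WT roots and 11.8, 11.9 and 12.8 FPKM in CCA1-ox roots (log2 fold change 0.63 ± 0.05, adjusted p = 2.32e-06). HAK5 (AT4G13420), the high-affinity importer, was lower at 2.07, 2.12 and 1.98 FPKM in WT roots and 1.25, 1.41 and 1.26 FPKM in CCA1-ox roots (log2 fold change -0.41 ± 0.08, adjusted p = 0.00246). Both shifts were larger than the spread between libraries.

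Plasma membrane proton pumps, the AHA genes, energise this transport. Of 11 listed 8 were tested, 2 were higher, 1 lower and 5 not called, close to the shares over all tested genes. AHA2 (AT4G30190, chromosome 4, 14770395 to 14776247), the main root pump, stood at 593, 585 and 596 FPKM in WT roots and 656, 703 and 692 FPKM in CCA1-ox roots. The rise was small, with a log2 fold change of 0.21 ± 0.03, adjusted p = 0.000231, and it was lost under quantile normalization. AHA7 (AT3G60330) stood at 5.66, 5.95 and 5.98 FPKM in WT roots and 10.1, 10.9 and 10.7 FPKM in CCA1-ox roots, the largest relative change of the family (log2 fold change 0.75 ± 0.05, adjusted p = 9.43e-07). AHA3 (AT5G57350), known from phloem companion cells, stood at 13.2, 14.1 and 13.7 FPKM in WT roots and 10.7, 11.9 and 11.5 FPKM in CCA1-ox roots (log2 fold change -0.25 ± 0.05, adjusted p = 0.00218). AHA1 (AT2G18960) stood at 171, 167 and 171 FPKM in WT roots and 172, 182 and 179 FPKM in CCA1-ox roots and was not called (adjusted p = 0.103), though it was called without CCA1-ox root replicate 1. AHA4, AHA5, AHA8 and AHA11 overlapped between groups, with log2 fold changes from -0.05 to 0.07.

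Aquaporins, the channels that carry water and small solutes across membranes, rose in 19 of 24 tested, fell in 2 and were not called in 3, with a median of 0.37; 1 fell without WT root replicate 2 or 3 or CCA1-ox root replicate 3. PIP1;1 (AT3G61430, chromosome 3, 22733243 to 22735394), a plasma membrane channel, stood at 237, 232 and 237 FPKM in WT roots and 431, 428 and 416 FPKM in CCA1-ox roots. WT and CCA1-ox libraries were well separated, with a log2 fold change of 0.85 ± 0.03, adjusted p = 1.17e-09. TIP2;1 (AT3G16240), a channel of the vacuole membrane, stood at 88, 87.6 and 96.2 FPKM in WT roots and 183, 175 and 163 FPKM in CCA1-ox roots (log2 fold change 0.93 ± 0.05, adjusted p = 5.05e-08). TIP2;3 (AT5G47450), a root relative that also carries ammonia, rose with a log2 fold change of 0.63 ± 0.04, adjusted p = 2.1e-07, and PIP2;4 (AT5G60660) with a log2 fold change of 0.54 ± 0.04, adjusted p = 1.12e-06. The most abundant channels were among those that rose. PIP1;2 (AT2G45960) stood at 719, 717 and 718 FPKM in WT roots and 951, 956 and 909 FPKM in CCA1-ox roots (log2 fold change 0.39 ± 0.03, adjusted p = 9.12e-07) and TIP1;2 (AT3G26520) at 549, 566 and 592 FPKM in WT roots and 806, 766 and 737 FPKM in CCA1-ox roots (log2 fold change 0.43 ± 0.04, adjusted p = 4.54e-06). PIP2;3 (AT2G37180) went down, with a log2 fold change of -0.38 ± 0.03, adjusted p = 5.19e-06; it is a near-identical paralog of PIP2;2, so the split between the pair is uncertain. The dot plot of pathway genes gives the libraries for picked genes of these and later groups.

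**Figure D4:**
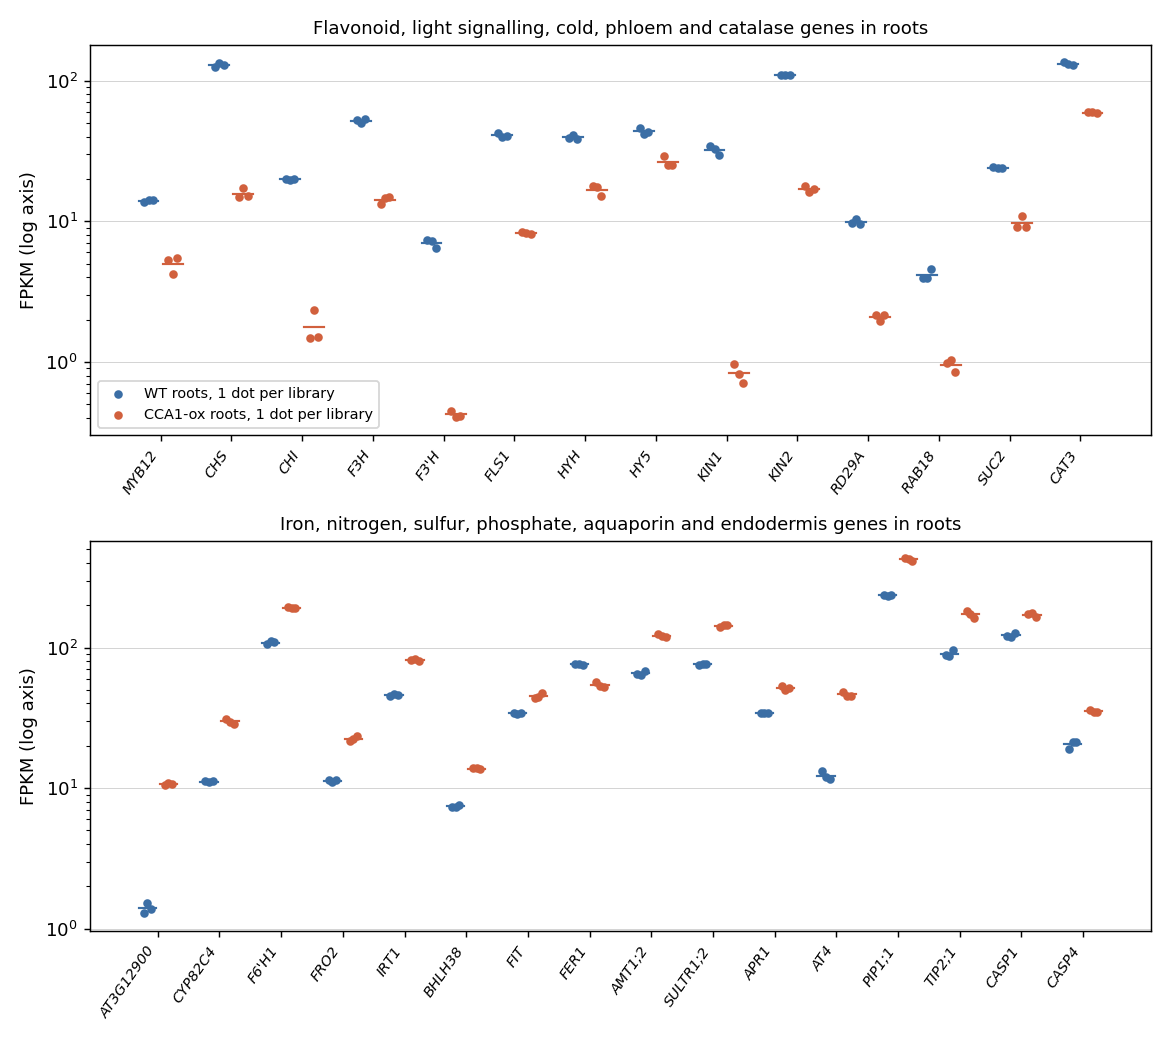
Dots are single root libraries (blue WT, orange CCA1-ox) and short lines are group means, in FPKM on a log axis. The upper panel holds picked flavonoid, light, cold, phloem and catalase genes, all lower in CCA1-ox. The lower panel holds picked iron, nitrogen, sulfur, phosphate, aquaporin and endodermis genes, all higher except the ferritin FER1. Several of these groups also hold genes that were not called or went the other way, which are not shown.

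Genes of the endodermis, the cell layer that seals the vascular cylinder with the lignin band called the Casparian strip, were higher in 10 of 11 tested and lower in none (median 0.49). In RNA from whole roots, more cells of a type and more RNA per cell cannot be told apart. CASP1 (AT2G36100, chromosome 2, 15159591 to 15160799), a membrane protein that places the strip, stood at 120.4, 119 and 127 FPKM in WT roots and 173, 177 and 164 FPKM in CCA1-ox roots. The groups were apart, with a log2 fold change of 0.49 ± 0.04, adjusted p = 1.02e-06. CASP2, CASP4 and CASP5 rose too, with log2 fold changes of 0.62, 0.76 and 0.60. MYB36 (AT5G57620), the factor that switches on strip genes, stood at 12.8, 13.3 and 13.6 FPKM in WT roots and 16.9, 17.8 and 16.4 FPKM in CCA1-ox roots (log2 fold change 0.34 ± 0.05, adjusted p = 0.000122). The dirigent protein gene ESB1 (AT2G28670) and the peroxidase gene PER64 (AT5G42180) had a log2 fold change of 0.48 ± 0.04, adjusted p = 1.28e-06 and a log2 fold change of 0.52 ± 0.03, adjusted p = 4.3e-07. SCR (AT3G54220), which specifies the layer, rose with a log2 fold change of 0.30 ± 0.05, adjusted p = 0.00098, and SHR (AT4G37650), which acts above SCR from the vascular tissue, was not called at 13.2, 14.7 and 13.5 FPKM in WT roots and 14.3, 13.1 and 14.1 FPKM in CCA1-ox roots. Over the 8 endodermis markers the summed level was 374.5 to 386.8 FPKM in WT and 532.4 to 559.2 FPKM in CCA1-ox roots. Suberin genes, which build the later waxy coat of the same layer, were higher in 11 of 16 and lower in 1 (median 0.20). The feruloyl transferase ASFT (AT5G41040) and the transporter ABCG6 (AT5G13580) had a log2 fold change of 0.46 ± 0.03, adjusted p = 5.16e-07 and a log2 fold change of 0.46 ± 0.03, adjusted p = 4.37e-07, and the reductase FAR1 (AT5G22500) fell with a log2 fold change of -0.46 ± 0.05, adjusted p = 2.53e-05.

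Root hair genes were higher in 9 of 13 tested and lower in 1 (median 0.33), and all 9 RHS genes, a set named for root hair specific expression, were higher (median 0.52). RSL2 (AT4G33880), a bHLH factor of hair growth, stood at 10.4, 11.2 and 9.46 FPKM in WT roots and 16.97, 18.01 and 17.2 FPKM in CCA1-ox roots. CCA1-ox values were all above WT values, with a log2 fold change of 0.70 ± 0.06, adjusted p = 3.17e-06. The cell wall genes PRP3 (AT3G62680) and EXPA18 (AT1G62980), active in growing hairs, had a log2 fold change of 0.63 ± 0.05, adjusted p = 2.22e-06 and a log2 fold change of 0.56 ± 0.05, adjusted p = 2.94e-06. RHS19 (AT5G67400) stood at 10.6, 11.3 and 11.7 FPKM in WT roots and 21.97, 21.8 and 21.3 FPKM in CCA1-ox roots (log2 fold change 0.90 ± 0.05, adjusted p = 5.75e-08) and RHS13 (AT4G02270) at 15.7, 15.8 and 15.7 FPKM in WT roots and 30.4, 27.4 and 28.6 FPKM in CCA1-ox roots (log2 fold change 0.83 ± 0.04, adjusted p = 6.64e-08). Lower was PRP1 (AT1G54970), at 3.08, 2.66 and 3.22 FPKM in WT roots and 1.61, 1.73 and 1.67 FPKM in CCA1-ox roots (log2 fold change -0.58 ± 0.08, adjusted p = 0.00023). RSL4 (AT1G27740), another regulator of hair length, overlapped between groups at 4.18, 4.601 and 4.73 FPKM in WT roots and 3.58, 4.33 and 3.92 FPKM in CCA1-ox roots (adjusted p = 0.136). None of the 6 genes that pattern hair and non-hair cells was called: WER (AT5G14750) and GL2 (AT1G79840), which mark non-hair cells, had log2 fold changes of -0.07 and 0.01. Hair markers (8 genes) summed to 98.9 to 102.4 FPKM in WT and 139.9 to 145.1 FPKM in CCA1-ox roots.

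Other cell type markers did not all shift. The root cap genes BRN1 (AT1G33280) and BRN2 (AT4G10350), which drive cap maturation, rose with a log2 fold change of 0.60 ± 0.08, adjusted p = 0.000121 and a log2 fold change of 0.38 ± 0.08, adjusted p = 0.00422, and the cap genes SMB and FEZ were not called. The 4 root meristem genes were not called. PLT1 (AT3G20840), which maintains the stem cell niche, stood at 5.09, 4.26 and 4.38 FPKM in WT roots and 4.82, 4.198 and 4.79 FPKM in CCA1-ox roots, and the groups overlapped. WOX5 (AT3G11260), expressed in the quiescent centre, stood at 1.47, 1.12 and 1.26 FPKM in WT roots and 1.43, 1.04 and 1.35 FPKM in CCA1-ox roots, also overlapping. Among 28 tested cell cycle genes 5 were higher and 4 lower, below the 39.0% called among all genes, and the higher ones numbered 2 without CCA1-ox root replicate 3 or WT root replicate 2. Leaving out CCA1-ox root replicate 1, or WT root replicate 1 or 3, gave 3. The D-type cyclin CYCD3;1 (AT4G34160) was among the lower, with a log2 fold change of -0.58 ± 0.06, adjusted p = 2.45e-05. Xylem and secondary wall genes were higher in 3 of 12 and lower in none, and 23.6% of all tested genes were higher. Under quantile normalization or scaling to summed fragments 2 of them were higher and 1 lower. The xylem proteases XCP1 (AT4G35350) and XCP2 (AT1G20850) overlapped between groups, with log2 fold changes of 0.04 and -0.04, while the metacaspase MC9 (AT5G04200) rose with a log2 fold change of 0.38 ± 0.04, adjusted p = 3.3e-05. Phloem markers were lower in 2 of 3, and their sum was 51.2 to 52.4 FPKM in WT and 29.99 to 31.8 FPKM in CCA1-ox roots. SUC2 (AT1G22710, chromosome 1, 8030587 to 8033156), the sucrose loader of companion cells, stood at 24.2, 23.9 and 23.9 FPKM in WT roots and 9.13, 10.9 and 9.104 FPKM in CCA1-ox roots. It was well below WT in each CCA1-ox library, with a log2 fold change of -1.23 ± 0.06, adjusted p = 5.35e-08. SEOR1 (AT3G01680), a sieve element protein, stood at 19.3, 19.8 and 19.4 FPKM in WT roots and 13.6, 13.5 and 14.5 FPKM in CCA1-ox roots (log2 fold change -0.46 ± 0.04, adjusted p = 6.41e-06), and APL (AT1G79430), the phloem identity factor, was not called at 7.699, 8.03 and 9.14 FPKM in WT roots and 7.296, 7.32 and 7.42 FPKM in CCA1-ox roots. The APL groups did not overlap. APL was called lower after scaling to summed fragments, with TMM-scaled fragments and without WT root replicate 1.

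**Figure D5:**
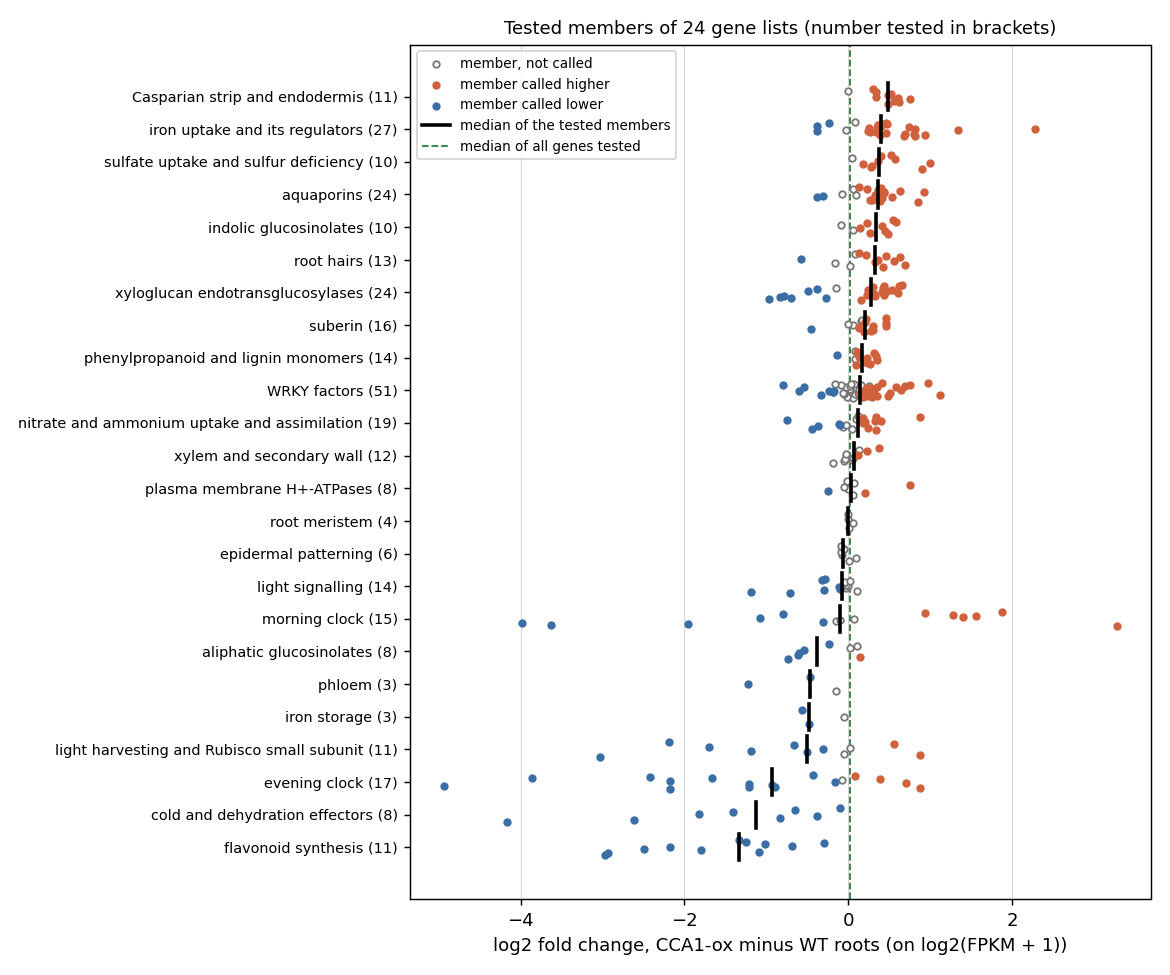
Each dot is a tested gene of 1 of 24 lists, placed by its log2 fold change (CCA1-ox minus WT roots); orange was called higher, blue called lower and open dots were not called, with a black bar at the median of each list and a green dashed line at the median of all genes. Among these 24 lists Casparian strip genes have the highest median (0.49) and flavonoid synthesis genes the lowest (-1.33). The RHS genes, with a median of 0.52, are not among the 24. Nor are the groups assembled after values were seen, of which triterpene (0.90), FLC clade (0.57) and pipecolic and salicylic acid genes (0.54) have higher medians.

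Cell wall loosening genes went both ways. Of 21 tested expansins 8 were higher and 9 lower. Among the 9, EXPA10 and EXPB2 passed the filter through the WT libraries alone. EXLB1 (AT4G17030), an expansin-like gene, stood at 13.96, 14.3 and 13.3 FPKM in WT roots and 2.64, 2.26 and 1.86 FPKM in CCA1-ox roots. It fell without overlap, with a log2 fold change of -2.20 ± 0.08, adjusted p = 6.94e-09. EXPA8 (AT2G40610) stood at 4.67, 3.93 and 4.84 FPKM in WT roots and 11.2, 11.8 and 10.7 FPKM in CCA1-ox roots and rose (log2 fold change 1.16 ± 0.07, adjusted p = 2.93e-07). The abundant EXPA4 (AT2G39700) stood at 139, 138 and 141 FPKM in WT roots and 79.9, 85.5 and 81.1 FPKM in CCA1-ox roots (log2 fold change -0.75 ± 0.03, adjusted p = 1.23e-08), and EXPA10 (AT1G26770) and EXPB2 (AT1G65680) also fell, with log2 fold changes of -1.25 and -0.98. Xyloglucan endotransglucosylases, which cut and rejoin wall polymers, were higher in 16 of 24 and lower in 7. Among the 24, 2 passed the filter through the CCA1-ox libraries alone. XTH18 (AT4G30280), of the root epidermis, rose with a log2 fold change of 0.61 ± 0.03, adjusted p = 9.93e-08. XTH7 (AT4G37800), XTH31 (AT3G44990) and XTH28 (AT1G14720) fell, with log2 fold changes of -0.97, -0.83 and -0.78.

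Hormone genes changed less than clock or flavonoid genes, and few exceeded 2-fold. Ethylene synthesis genes were higher in 6 of 9 tested and lower in none (median 0.28). Scaling to summed fragments gave 4 higher, as did leaving out WT root replicate 1 or CCA1-ox root replicate 2 or 3. The synthases ACS5 (AT5G65800) and ACS6 (AT4G11280) rose, with a log2 fold change of 0.80 ± 0.09, adjusted p = 3.56e-05 and a log2 fold change of 0.69 ± 0.04, adjusted p = 3.2e-07. Brassinosteroid genes were higher in 6 of 7 (median 0.19), BR6OX1 (AT5G38970) most with a log2 fold change of 0.37 ± 0.10, adjusted p = 0.0106, but the count was 2 after scaling to summed fragments or without WT root replicate 1, and 3 without WT root replicate 3 or CCA1-ox root replicate 3. Of the auxin genes, 4 of 9 transport genes, 1 of 6 synthesis genes (2 without CCA1-ox root replicate 3) and 4 of 17 Aux/IAA genes were called, against 39.0% of all tested genes. The influx carriers LAX1 (AT5G01240) and LAX3 (AT1G77690) went in opposite directions, with a log2 fold change of -0.43 ± 0.06, adjusted p = 0.000117 and a log2 fold change of 0.22 ± 0.03, adjusted p = 0.000236. ARR16 (AT2G40670), a type-A regulator that damps cytokinin signalling, stood at 0.211, 0.139 and 0.268 FPKM in WT roots and 1.73, 1.41 and 1.96 FPKM in CCA1-ox roots. It passed 1 FPKM in the CCA1-ox roots alone and so entered the test through them, with a log2 fold change of 1.16; ARR5 and ARR6 rose by 0.29 and 0.39 on the log2 scale. IPT5 (AT5G19040), of cytokinin synthesis, fell with a log2 fold change of -0.63 ± 0.06, adjusted p = 1.64e-05. Among gibberellin genes GA3OX2 (AT1G80340) fell and GA20OX3 (AT5G07200) rose, with a log2 fold change of -0.79 ± 0.09, adjusted p = 3.11e-05 and a log2 fold change of 0.63 ± 0.09, adjusted p = 0.000172. GA20OX3 passed the filter through the CCA1-ox libraries alone. Jasmonate genes were higher in 5 of 10 (3 without CCA1-ox root replicate 1 or after scaling to summed fragments) and lower in 2, and those 2 were VSP1 (AT5G24780) and VSP2 (AT5G24770), vegetative storage proteins. VSP2 passed the filter through the WT libraries alone. VSP2 stood at 4.98, 4.63 and 5.29 FPKM in WT roots and 0.111, 0.164 and 0.249 FPKM in CCA1-ox roots (log2 fold change -2.35 ± 0.09, adjusted p = 7.05e-09) and VSP1 at 22.03, 22.4 and 23.3 FPKM in WT roots and 10.4, 9.99 and 9.72 FPKM in CCA1-ox roots (log2 fold change -1.09 ± 0.04, adjusted p = 9.92e-09).

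The branches of glucosinolate synthesis, sulfur-rich defence compounds, went in different directions. Indolic genes were higher in 8 of 10 tested and lower in none (median 0.34), whereas aliphatic genes were lower in 5 of 8 and higher in 1 (median -0.38). Without CCA1-ox root replicate 1, 1 indolic gene was lower, and without CCA1-ox root replicate 3, 2 aliphatic genes were higher. CYP79B2 (AT4G39950), which starts the indolic branch from tryptophan, stood at 53.7, 54.8 and 57.5 FPKM in WT roots and 78.7, 77.2 and 78.5 FPKM in CCA1-ox roots. No library overlapped, with a log2 fold change of 0.49 ± 0.03, adjusted p = 4.44e-07. CYP83B1 (AT4G31500), the next enzyme, and CYP81F2 (AT5G57220), which modifies the indole, had a log2 fold change of 0.45 ± 0.03, adjusted p = 4.03e-07 and a log2 fold change of 0.55 ± 0.03, adjusted p = 1.66e-07. MAM1 (AT5G23010), which lengthens the side chain of the aliphatic branch, stood at 18.3, 17.58 and 15.99 FPKM in WT roots and 10.1, 10.5 and 9.44 FPKM in CCA1-ox roots (log2 fold change -0.73 ± 0.06, adjusted p = 2.17e-06). CYP79F2 (AT1G16400) and CYP83A1 (AT4G13770), of the aliphatic core, fell with a log2 fold change of -0.62 ± 0.05, adjusted p = 1.32e-06 and a log2 fold change of -0.60 ± 0.04, adjusted p = 1.32e-06. WRKY factors, many of which act in immunity, were higher in 24 of 51 tested and lower in 8 (median 0.15). Among the 51, 2 passed the filter through the CCA1-ox libraries alone. WRKY70 (AT3G56400), a regulator of salicylic acid responses, stood at 15.9, 15.5 and 15.6 FPKM in WT roots and 34.9, 35.5 and 35.2 FPKM in CCA1-ox roots. All CCA1-ox libraries were well above WT, with a log2 fold change of 1.12 ± 0.03, adjusted p = 1.35e-09. WRKY40 (AT1G80840) and WRKY33 (AT2G38470) rose by 0.76 and 0.48 on the log2 scale, and WRKY42 (AT4G04450) fell with a log2 fold change of -0.80 ± 0.07, adjusted p = 7.63e-06.

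Lists of primary metabolism and light-harvesting genes were mixed in direction, with large changes in some members. Catalase CAT3 (AT1G20620, chromosome 1, 7142972 to 7146540), which removes hydrogen peroxide and peaks in the evening, stood at 135, 131 and 129.9 FPKM in WT roots and 59.3, 59.3 and 59.1 FPKM in CCA1-ox roots. The CCA1-ox libraries were within 1 FPKM of each other, with a log2 fold change of -1.14 ± 0.03, adjusted p = 1.72e-10, while CAT1 and CAT2 were not called and APX1 (AT1G07890) rose with a log2 fold change of 0.21 ± 0.03, adjusted p = 8.41e-05. Sucrose synthase SUS1 (AT5G20830) stood at 21.2, 19.9 and 19.9 FPKM in WT roots and 9.24, 9.34 and 9.24 FPKM in CCA1-ox roots (log2 fold change -1.06 ± 0.04, adjusted p = 1.24e-08), and SUS4 (AT3G43190) was not called (adjusted p = 0.192). SEX1 (AT1G10760), which primes starch for breakdown, fell with a log2 fold change of -0.43 ± 0.05, adjusted p = 8.41e-05. The sugar exporter SWEET13 (AT5G50800), which passed the filter through the CCA1-ox libraries alone, rose with a log2 fold change of 0.87 ± 0.11, adjusted p = 7.2e-05. Light-harvesting and Rubisco genes, low in roots, were lower in 7 of 11 tested and higher in 2. Of the 7, LHCB1.3, LHCA2 and RBCS1A passed the filter through the WT libraries alone, so their direction was fixed by how they entered. LHCB1.3 (AT1G29930) stood at 12.4, 12.5 and 14.4 FPKM in WT roots and 0.791, 0.633 and 0.7295 FPKM in CCA1-ox roots (log2 fold change -3.03 ± 0.08, adjusted p = 3.55e-10), and LHCA2 (AT3G61470) and LHCB5 (AT4G10340) had a log2 fold change of -1.70 ± 0.11, adjusted p = 4.08e-07 and a log2 fold change of -1.19 ± 0.07, adjusted p = 2.43e-07. Rising were LHCB1.5 (AT2G34420), at 34.95, 34.1 and 37.3 FPKM in WT roots and 71.1, 66.3 and 60.1 FPKM in CCA1-ox roots (log2 fold change 0.87 ± 0.06, adjusted p = 3.62e-07), and LHCA4 (AT3G47470; log2 fold change 0.56 ± 0.04, adjusted p = 1.16e-06). The summed level of the list, which overlapped between the root groups, was at least 78530 FPKM in WT shoots. Photosynthesis genes outside this list were not counted as a group. Several of them, such as RCA (AT2G39730), PSBO1 (AT5G66570) and FED A (AT1G60950), fell at least 2-fold, and others, such as PSAD-2 (AT1G03130), were not called. The part of shoot RNA in all these values was not tested. CDF and CONSTANS-like genes were higher in 4 of 8 and lower in 2. Among the 8, 1 passed the filter through the CCA1-ox libraries alone. STO (AT1G06040) stood at 67.5, 66.9 and 62.03 FPKM in WT roots and 118, 117 and 117 FPKM in CCA1-ox roots (log2 fold change 0.83 ± 0.03, adjusted p = 1.24e-08), CDF3 (AT3G47500) rose with a log2 fold change of 0.61 ± 0.04, adjusted p = 7.33e-07, and STH (AT2G31380), a close relative of STO, stood at 3.66, 3.81 and 4.15 FPKM in WT roots and 1.53, 1.38 and 1.17 FPKM in CCA1-ox roots (log2 fold change -1.05 ± 0.09, adjusted p = 2.96e-06).

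Some genes were close to absent in one genotype. AT2G01422, on chromosome 2 from 183940 to 184734, stood at 0.0289, 0.0243 and 0.0999 FPKM in WT roots and 57.3, 57.6 and 56.3 FPKM in CCA1-ox roots. It had the highest log2 fold change of all genes tested with a mean of at least 5 FPKM in either group, 5.79 ± 0.06 (SE). MRD1 (AT1G53480), which overlaps genes on the other strand, stood at 35.97, 36.2 and 36.8 FPKM in WT roots and 0.268, 0.125 and 0.17 FPKM in CCA1-ox roots and had the deepest fall (log2 fold change -4.98 ± 0.06, adjusted p = 1.08e-12). BGLU7 (AT3G62740), a beta-glucosidase gene, stood at 26.2, 26.6 and 26.02 FPKM in WT roots and 0.494, 0.377 and 0.509 FPKM in CCA1-ox roots (log2 fold change -4.23 ± 0.06, adjusted p = 3.54e-12). SP1L2 (AT1G69230) and SP1L5 (AT4G23496), relatives of the microtubule protein SPIRAL1, fell from 12.5, 13.5 and 14.7 to 0.344, 0.3196 and 0.605 FPKM and from 7.82, 6.61 and 6.51 to 0.187, 0.174 and 0.242 FPKM. AT2G01422 passed the filter through the CCA1-ox libraries alone. MRD1, BGLU7, SP1L2 and SP1L5 passed it through the WT libraries alone. The direction of each was thus fixed by how it entered, and its p-value is no test of direction. In all, 8 genes had a mean under 0.5 FPKM in one genotype and at least 5 in the other, with AT2G01422 higher in CCA1-ox and the other 7 lower. That split is a description.

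In absolute FPKM, the 5 largest gains and losses were in abundant transcripts. PYK10 (AT3G09260), the beta-glucosidase of root endoplasmic reticulum bodies, rose from 5580, 5576 and 5599 FPKM to 6186, 6157 and 6129 FPKM, a small relative change (log2 fold change 0.14 ± 0.03, adjusted p = 0.00218) that was lost after quantile normalization and after scaling to summed fragments. DOX1 (AT3G01420), an alpha-dioxygenase, AT2G43150 and KTI5 (AT1G17860), a protease inhibitor, had log2 fold changes of 0.31, 0.31 and 0.56. GSTF7 (AT1G02920), a glutathione transferase, stood at 292, 284 and 269.7 FPKM in WT roots and 571, 546 and 563 FPKM in CCA1-ox roots (log2 fold change 0.99 ± 0.03, adjusted p = 2.43e-09). The largest loss was that of GRP9 (AT2G05440), a glycine-rich protein gene, at 2738, 2439 and 2458 FPKM in WT roots and 1189, 1152 and 1171 FPKM in CCA1-ox roots. Its groups were far apart, with a log2 fold change of -1.12 ± 0.04, adjusted p = 6.3e-09. AT1G54410 was at 1065, 1058 and 1093 FPKM in WT roots and 744, 655 and 588 FPKM in CCA1-ox roots (log2 fold change -0.70 ± 0.06, adjusted p = 7.44e-06) and came next, followed by CCR2. AT2G05510 was at 456, 420.2 and 409 FPKM in WT roots and 128, 125 and 134 FPKM in CCA1-ox roots (log2 fold change -1.72 ± 0.04, adjusted p = 1.72e-10), and UBQ3 (AT5G03240), a polyubiquitin gene, fell with a log2 fold change of -0.43 ± 0.03, adjusted p = 1.82e-07.

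The root effect was set against the shoot effect for the 6 highest rises and 6 deepest falls, in a fit of all 12 libraries. These genes were chosen by their root effect, which favours a difference between the organs, so the values are given as a description. MRD1 and JMJD5 had root minus shoot differences of 0.06 ± 0.08 and 0.01 ± 0.11 (SE) on the log2 scale, which were not called, though both were called under some other settings. KIN1 fell in roots and rose in shoots, with log2 fold changes of -4.17 and 0.75. BGLU7 fell in roots and had a log2 fold change of -0.02 in shoots, where it was not called. ALD1, AT5G36130 and CYP716A2 were listed at 0 in every shoot library. Of the 93 genes at least 2-fold higher in CCA1-ox roots, 68 (73.1%) had a WT shoot mean under 1 FPKM, against 52 of the 211 genes at least 2-fold lower (24.6%) and 13.9% of all genes tested.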

How the data were processed

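Gene expression was measured by RNA-seq in 12 Arabidopsis libraries, of which the 6 from roots were compared here (3 WT, 3 CCA1-ox). Per the labels' protocols, libraries were built with a strand-preserving kit from column-purified, DNase-treated total RNA. The authors deposited FPKM for 33010 genes on TAIR 10, per the submitters' processing notes; which aligner, counter and strand setting were used is not given in the sources used here. FPKM multiplied by gene length gave whole fragments for 100% of values within 0.1, and their implied library size was 1.14 to 1.15 times the summed fragments in WT roots and 1.09 to 1.10 times in CCA1-ox roots. Summed fragments were 27142671 to 45051329 per root library; counting error is then small for genes of several FPKM and large near 0. Replicate pairs differed beyond sampling noise (median chi-square 1.03 to 1.25 against 0.455), so none was merged.

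Genes with FPKM of at least 1 in at least 3 root libraries (19089) were tested with limma 3.58.1 in R 4.3.3 on log2(FPKM + 1), with a variance trend and 4 residual degrees of freedom, two-sided, adjusted by Benjamini-Hochberg over all tested genes and called under 0.05. Root minus shoot differences came from 1 fit of all 12 libraries. The script was tested on simulated data. Alternatives were pseudocounts of 0.1 and 5, no filter, a filter at 5 FPKM, quantile normalization, summed-fragment scaling, voom with TMM, all libraries in 1 fit, a replicate block, no variance trend and each library left out; a longer promoter window was added after seeing the data. Coordinates are from the deposited table, and 99.95% of shared nuclear genes have the same start and end in RefSeq (TAIR 10.1), from which promoters were read.

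Members and 52 gene lists (770 genes, 589 tested) were chosen with earlier results of these data known. The naming rule took all proton pump genes, up to 4 called genes with the largest change per list, the 6 highest rises and 6 deepest falls among called genes of at least 5 FPKM in the higher group with no overlap, the 5 largest gains and losses in FPKM, and genes under 0.5 FPKM in 1 group and at least 5 in the other. Further clock, pathway and marker genes of the lists were named after their values were seen, and some genes are not reported here.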

Additional observations from a re-analysis of the deposited data

Results flagged for a closer look

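The genes with the 6 highest rises and 6 deepest falls in roots were set against shoots in 1 limma fit of all 12 libraries, with p-values adjusted over the genes tested in roots, and those whose root and shoot effects differed are given here. They were chosen by their root effect, which favours such a difference, so their number is not a result; the value in each case is the root minus shoot difference of log2 fold changes. KIN1, a cold-induced gene, had a difference of -4.92 (adjusted p = 1.18e-12), with a fall in roots and a rise in shoots. BGLU7 had -4.20 (adjusted p = 5.81e-13), with a fall in roots alone called. The clock genes ELF4 and RVE2 fell in both organs and further in roots, with differences of -1.57 and -1.77. CCA1 itself rose more in roots, by 1.05 (adjusted p = 1.99e-10), from 17.2, 16.2 and 17.9 FPKM in the WT root libraries. AT2G01422 rose in both organs and less in roots, with a difference of -0.66 (adjusted p = 2.52e-06); this call was lost with a pseudocount of 0.1 and under quantile normalization.

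ALD1, AT5G36130 and CYP716A2 were listed at 0 in all shoot libraries, so their differences of 2.36, 2.15 and 2.14 equal their root effects and test nothing further. AT3G12900, the oxygenase gene of the iron list, had a difference of 2.24 (adjusted p = 1.13e-10), with a shoot log2 fold change of 0.04 that was not called.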

How the results depend on the processing

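The counts of genes called, 4504 higher and 2938 lower, stayed within 1.5 times under every alternative that gave them. The higher genes ranged from 3061 (scaled to summed fragments) to 4511 (pseudocount of 5) and the lower ones from 2174 (filter at 5 FPKM) to 4248 (scaled to summed fragments), with 3967 and 3850 from voom; leaving out each library gave 3842 to 4207 higher and 2435 to 2827 lower. The counts past 2-fold depend on the scale. Against 93 higher and 211 lower they were 189 and 383 with a pseudocount of 0.1, 26 and 60 with a pseudocount of 5, and 192 and 428 with voom, and 130 were lower with the filter at 5 FPKM; leaving out each library gave 87 to 96 higher and 207 to 219 lower. With 500 bases before the gene start, a window chosen after seeing the data, the evening element stood in 28.3% of genes at least 2-fold lower, 13.3% of other genes called lower, 8.6% of genes not called and 9.32% of genes called higher under 2-fold.

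Replicate numbers did not pair the samples: same-numbered WT and CCA1-ox libraries had correlated deviations of -0.0177, 0.00312 and 0.0105, and only replicate 3 correlated best with its own number. With the number as a replicate block 4333 genes were higher and 2868 lower, and the counts past 2-fold stayed at 93 and 211. Of 229 genes followed, 186 had a value under every alternative and 43 fell below the filter at 5 FPKM; 215 stayed on their side of the threshold under each alternative that gave a value and 14 did not. CCR1 (AT4G39260), with 0.08 in the main setting, turned to -0.051 under quantile normalization. Root minus shoot differences turned for JMJD5 (-0.99 with a pseudocount of 0.1, -0.30 under quantile normalization) and MRD1 (-0.60 under quantile normalization, -0.25 with summed fragments); the cause was not tested. Depth limits genes near 0 FPKM, where a few fragments decide a value.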

Other observations

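Further groups were assembled after their values were seen, so their counts, like those of the lists above, carry no weight beyond description. Triterpene synthases and the genes beside them were higher in 8 of 10 tested and lower in none, with a median log2 fold change of 0.90. The longest run of neighbouring genes at least 2-fold changed in 1 direction lay on chromosome 5 from 14209088 to 14226211 and held AT5G36130, CYP716A2 (AT5G36140), a cytochrome P450, and PEN3 (AT5G36150), a triterpene synthase. CYP716A2 stood at 6.59, 6.34 and 6.23 FPKM in WT roots and 29.4, 32.8 and 32.4 FPKM in CCA1-ox roots. PEN3 stood at 1.05, 1.11 and 1.16 FPKM in WT roots and 4.29, 4.36 and 4.41 FPKM in CCA1-ox roots, and both were higher in every CCA1-ox library. In the marneral cluster MRN1 (AT5G42600), the synthase, stood at 5.58, 5.92 and 6.23 FPKM in WT roots and 11.7, 13.5 and 12.7 FPKM in CCA1-ox roots (log2 fold change 0.98 ± 0.06, adjusted p = 3.94e-07) and CYP705A12 (AT5G42580) rose as well (log2 fold change 1.16 ± 0.06, adjusted p = 6.12e-08). In all, 37 genes past 2-fold stood in 18 runs of neighbours, 15 of them lower and 3 higher, which is 12.2% of the 304 genes.

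Genes of pipecolic and salicylic acid immunity were higher in 8 of 11 tested and lower in none (median 0.54). ALD1 (AT2G13810), which starts pipecolic acid synthesis, stood at 3.09, 3.11 and 3.55 FPKM in WT roots and 21.6, 18.4 and 22.6 FPKM in CCA1-ox roots. FMO1 (AT1G19250), which makes the active hydroxylated form, stood at 3.09, 3.26 and 3.20 FPKM in WT roots and 11.0, 11.1 and 10.5 FPKM in CCA1-ox roots. Neither overlapped between groups, with log2 fold changes of 2.36 ± 0.08 and 1.502 ± 0.06 (SE). Low-oxygen genes were lower in 5 of 9 and higher in 1. PDC2 (AT5G54960), a pyruvate decarboxylase of fermentation, stood at 25.2, 24.2 and 25.02 FPKM in WT roots and 3.103, 3.34 and 3.09 FPKM in CCA1-ox roots (log2 fold change -2.63 ± 0.05, adjusted p = 2.77e-11), and ADH1 (AT1G77120), the alcohol dehydrogenase, fell with a log2 fold change of -0.85 ± 0.08, adjusted p = 8.72e-06.

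Defensin genes of the PDF2 group were lower in 3 of 4. PDF2.1 (AT2G02120) stood at 251, 256 and 271 FPKM in WT roots and 30.4, 25.6 and 31.3 FPKM in CCA1-ox roots (log2 fold change -3.12 ± 0.06, adjusted p = 4.3e-11), PDF2.2 (AT2G02100) had a log2 fold change of -1.79 ± 0.04, adjusted p = 1.69e-10 and PDF2.3 (AT2G02130) had a log2 fold change of -0.85 ± 0.04, adjusted p = 2.41e-08. Metallothioneins, which bind metals, were split. MT2A (AT3G09390) stood at 232, 226 and 228 FPKM in WT roots and 62.7, 61.8 and 57.5 FPKM in CCA1-ox roots (log2 fold change -1.90 ± 0.03, adjusted p = 1.83e-11), whereas MT2B (AT5G02380) rose with a log2 fold change of 0.41 ± 0.04, adjusted p = 1.27e-05. FLC and MAF5 entered the test through the CCA1-ox libraries alone. The flowering repressors FLC (AT5G10140) and MAF5 (AT5G65080) were higher, with a log2 fold change of 1.12 ± 0.12, adjusted p = 2.51e-05 and a log2 fold change of 1.21 ± 0.11, adjusted p = 6.78e-06, and SOC1 (AT2G45660), a flowering activator that FLC represses, stood at 6.78, 7.23 and 7.26 FPKM in WT roots and 1.404, 1.26 and 1.75 FPKM in CCA1-ox roots (log2 fold change -1.72 ± 0.08, adjusted p = 4.71e-08). Among B-box factors COL9 (AT3G07650) stood at 12.4, 12.9 and 12.3 FPKM in WT roots and 2.05, 1.74 and 1.95 FPKM in CCA1-ox roots (log2 fold change -2.22 ± 0.06, adjusted p = 8.94e-10) and BBX28 (AT4G27310) at 3.59, 4.03 and 4.103 FPKM in WT roots and 16.5, 15.4 and 14.4 FPKM in CCA1-ox roots (log2 fold change 1.74 ± 0.07, adjusted p = 6.56e-09).

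The remaining lists were read against the 23.6% of all tested genes called higher and 15.4% called lower. Vacuolar proton pump subunits were higher in 3 of 9 tested and lower in none, vacuolar exchangers higher in 3 of 6 and lower in 1, and sugar carriers higher in 4 of 11 and lower in 2. Under quantile normalization 1 pump subunit was higher and 1 lower, and after scaling to summed fragments 2 were higher. The lower sugar carriers numbered 1 without any WT root replicate or without CCA1-ox root replicate 1, and the list spanned log2 fold changes from -1.23 to 0.87. Cytokinin oxidase and IPT genes were higher in 3 of 9 and lower in 2, with 1 higher without WT root replicate 3, without CCA1-ox root replicate 1 or 2 or after scaling to summed fragments. Heat shock genes were higher in 2 of 4 and lower in 1, none of them lower without WT root replicate 1 or 3 or CCA1-ox root replicate 2 or 3, with HSP90.1 (AT5G52640) at a log2 fold change of 0.70 ± 0.05, adjusted p = 1.13e-06. Among the 4, 1 passed the filter through the WT libraries alone. GH3 genes were higher in 1 of 3. Of 16 SAUR genes listed only 2 were tested.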
